A study of Mus musculus with 12 samples.

Results

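The 2 libraries of PlusDox HE2 cells, which carried a doxycycline-inducible RUNX1-EVI1 construct and received 0.5 µg/ml doxycycline for 18 hours, were compared with the 2 libraries of NoDox HE2 cells, which carried the same construct and received none. The rule took every library labelled HE2, which gave 4 of the 12 libraries of the series, and all genes. The other 8 libraries were the PlusDox and NoDox HE1 and HP cells, 2 of each, where HE1 and HE2 are labelled hemogenic endothelial 1 and 2 and HP is the hematopoietic progenitor population. All cells came from A2lox.cre, a mouse embryonic stem cell line with a site for inserting an inducible gene, into which the fusion was placed from the pME18s-RUNX1-EVI1 plasmid in the p2lox vector. Colonies were picked one by one under neomycin. The labels do not say how many clones were used or whether the replicates came from separate clones, so the p-values measure the spread between these libraries. FLK1+ cells were purified from embryoid bodies of 3.25 days, cultured in VEGF and IL-6 for 1 day before doxycycline, and sorted. No cells without the construct were given doxycycline in the groups used here, so doxycycline itself and the fusion cannot be told apart. The labels do not describe the gates of the sort. The title of the series names lineage choice and the cell cycle as the matters under study.

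Hemogenic endothelium is the vessel lining from which the first blood cells arise. Cells on this path switch off endothelial and arterial genes and switch on blood genes, and RUNX1, a DNA-binding factor that pairs with CBFB, drives that switch. The leukaemia fusion RUNX1-EVI1 keeps the DNA-binding part of RUNX1 and joins it to EVI1, a zinc finger protein made from the Mecom locus that recruits repressors and is active in arterial endothelium and blood stem cells. Hemogenic endothelial cells can carry both programmes at once.

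Expression was read as FPKM, fragments scaled by gene length and by mapped fragments, and folds are log2 differences of FPKM + 1, PlusDox HE2 over NoDox HE2, with standard errors from limma. Both endothelial and blood genes were present in every HE2 library. The summed level of 8 endothelial markers was 1549 and 1475 FPKM in PlusDox HE2 and 844 and 1255 in NoDox HE2, and that of 8 blood markers was 354 and 221 in PlusDox HE2 and 334 and 220 in NoDox HE2. The 5 cardiac markers summed to 1.69 and 2.61 FPKM in PlusDox HE2 and 3.97 and 5.79 in NoDox HE2, with Myl7 listed at 0 in all 4 libraries. The 8 smooth muscle and mesenchyme markers summed to 53 and 98.1 FPKM in PlusDox HE2 and 58.6 and 94 in NoDox HE2. The 4 pluripotency markers summed to less than 1 FPKM in each HE2 library. Relative depth, with the middle of the 12 libraries set to 1, was 1.03 and 0.895 in PlusDox HE2 and 1.15 and 0.973 in NoDox HE2. Lars2, one of 3 features that take a large share of reads in 5 libraries of the series, stood at 137 and 10224 FPKM in PlusDox HE2 and 24.0 and 168 FPKM in NoDox HE2, so that only PlusDox HE2 replicate 2 was high. On the first principal component, which separates HE1 from HP libraries and holds 64.6% of the variance, PlusDox HE2 lay at −10.5 and −20.6 and NoDox HE2 at 11.2 and −7.5. NoDox HE2 replicate 1 was the HE2 library nearest to HP and lowest in endothelial markers. In bulk RNA of this kind, fewer cells of a type and less RNA per cell cannot be told apart.

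The genes of the construct were read first. Runx1 (mm10 chromosome 16, 92601466 to 92826074, protein coding) was at 35.8 and 21.3 FPKM in PlusDox HE2 and 29.4 and 36.8 FPKM in NoDox HE2, and the groups overlapped (log2 −0.24 ± 0.57, adjusted p = 0.847). Mecom (chromosome 3, 29951296 to 30509759, protein coding) was at 18.4 and 20.2 FPKM in PlusDox HE2 and 6.08 and 13.9 FPKM in NoDox HE2. Both PlusDox libraries were above both NoDox libraries, but the difference did not pass (0.98 ± 0.32, adjusted p = 0.0923). It passed without NoDox HE2 replicate 2 (1.52, adjusted p = 0.0136). The labels do not name the species of the fusion cDNA, so neither gene checks the induction. Cbfb, the partner of RUNX1, was at 30.9 and 39.3 FPKM in PlusDox HE2 and 30.2 and 37.6 FPKM in NoDox HE2. Of the 6 tested genes of the core binding factor and EVI1 family none was called by limma, and 2 had an unadjusted p below 0.05. Hprt (chromosome X, 52988078 to 53021660, protein coding), the gene beside which the A2lox system carries its inducible cassette, was at 38.5 and 36.4 FPKM in PlusDox HE2 and 3.63 and 5.18 FPKM in NoDox HE2 (2.84 ± 0.36, adjusted p = 0.00127).

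Across the genome, 807 of 13316 tested genes were called at an adjusted p below 0.05, or 6.06%. Of these, 509 were higher (3.82%) and 298 lower (2.24%) in PlusDox HE2. The count of calls in each gene list below is to be read beside these shares. Large rises were more numerous than large falls. In all, 59 genes rose and 9 fell by more than 4-fold, and 12 rose and 2 fell by more than 8-fold on the log2(FPKM + 1) scale. Of the genes that rose, 30 averaged below 1 FPKM in NoDox HE2 and at least 5 FPKM in PlusDox HE2. The opposite held for only 2 of the genes that fell, Ubash3a and Nlrc3. Ubash3a, an inhibitor of T cell receptor signalling, was at 0.747 and 0.946 FPKM in PlusDox HE2 and 5.20 and 5.99 FPKM in NoDox HE2 (−1.84 ± 0.20, adjusted p = 0.000637). The median log2 fold over all tested genes was −0.05. The split of calls between higher and lower depended on scaling and on the libraries, with 63.1% higher as deposited, 51.6% after quantile normalization, 54.9% after median scaling and 56.5% after rescaling without the 3 abundant features. Without PlusDox HE2 replicate 1 falls were the majority, with 282 higher and 299 lower (48.5% higher).

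The calls also depended on single libraries. There were 172 without NoDox HE2 replicate 1, 766 without NoDox HE2 replicate 2, 581 without PlusDox HE2 replicate 1 and 238 without PlusDox HE2 replicate 2. The same 145 of the 807 genes were called, in the same direction, in all 4 of these fits, 118 of them higher and 27 lower; they are called the stable calls below. In each such fit the lone library of a group is assumed to vary like the other groups. The word stable refers to these 4 fits alone. With a pseudocount of 0.1 in limma, the stable calls Tyrobp (adjusted p = 0.189) and Kctd12 (0.0558) did not pass. Pdzk1ip1 did not pass with no filter on low values (0.0521). Hprt, Il1b, Ctsh, Coro1a, Ptprc, Ltb, Mogat2 and Procr were among the stable rises and Mpo, Kctd12, Igfbp5, Mrpl12 and Txn2 among the stable falls.

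**Figure D1:**
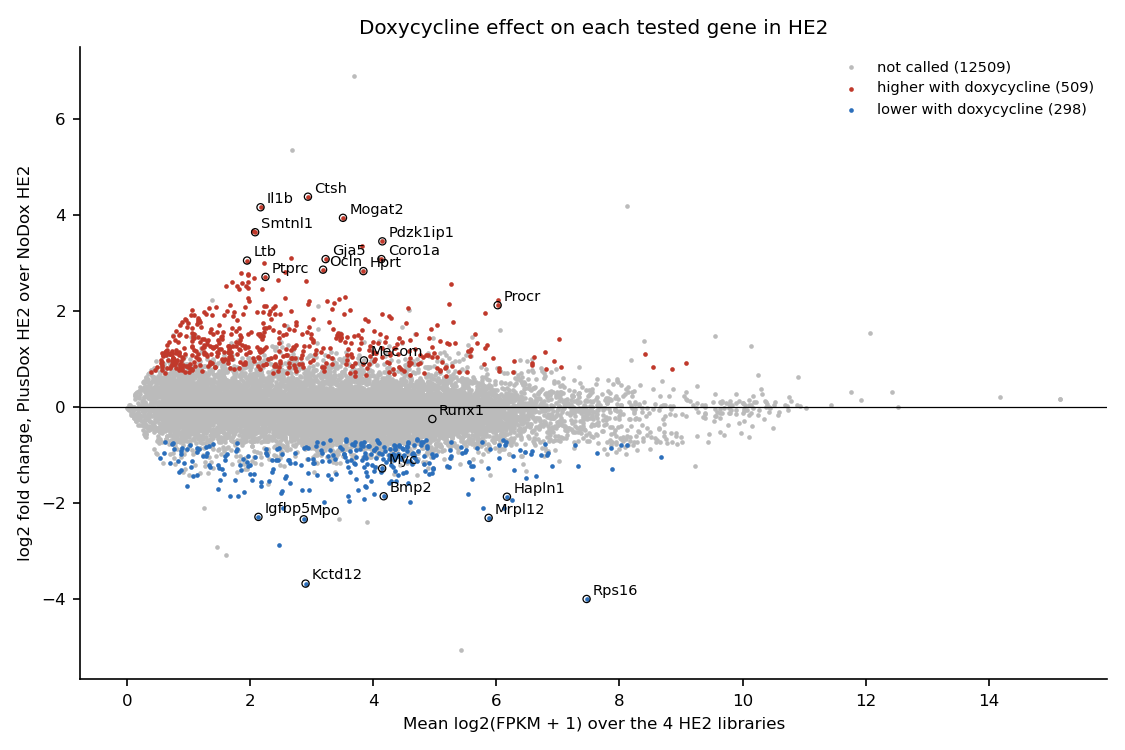
Each point is 1 of 13316 tested genes, with its mean log2(FPKM + 1) over the 4 HE2 libraries on the x axis and its log2 fold change, PlusDox HE2 over NoDox HE2, on the y axis. The 509 genes called higher are red and the 298 called lower are blue. The rises reach 4.39 (Ctsh) and most falls stay above −2.33 (Mpo), while some uncalled grey points with wide replicate spread lie further out.

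The promoters of Il1b, Procr and Mpo are shown as the genomic text behind 3 stable calls. These genes are single examples and do not represent the lists described below. In the list of 15 tested myeloid granule and lysosomal genes, for instance, the granule genes Mpo and Cst7 fell. The 5 rises in that list were Ctsh, Naaa, Lgmn, Ctsl and Cst3, which encode lysosomal enzymes and a secreted protease inhibitor. Il1b encodes the cytokine interleukin 1 beta (chromosome 2, 129364569 to 129371164). It was at 15.6 and 21.0 FPKM in PlusDox HE2 and 0.0877 and 0.0345 FPKM in NoDox HE2 (4.17 ± 0.39, adjusted p = 0.000291). Procr encodes the endothelial protein C receptor, a surface protein of arterial endothelium and blood stem cells (chromosome 2, 155751125 to 155755478). It was at 143 and 128 FPKM in PlusDox HE2 and 23.9 and 37.6 FPKM in NoDox HE2 (2.13 ± 0.24, adjusted p = 0.000681). Mpo encodes myeloperoxidase, the granule enzyme of neutrophil precursors (chromosome 11, 87793784 to 87804412). It was at 3.04 and 1.64 FPKM in PlusDox HE2 and 16.9 and 14.1 FPKM in NoDox HE2 (−2.33 ± 0.27, adjusted p = 0.000801). The windows are those around the start in RefSeq on GRCm38.p6, 5′ to 3′ on the gene's strand, which is minus for Il1b (chr2:129371090-129371389) and plus for Procr (chr2:155750967-155751266) and Mpo (chr11:87793534-87793833). Capitals mark the motif matches found, an ETS motif on the opposite strand in Il1b, an AP-1 motif in Procr and an ETS motif in Mpo. The windows of Coro1a and Gja5, both called higher, held no match to the motifs searched and are not printed.
Il1b: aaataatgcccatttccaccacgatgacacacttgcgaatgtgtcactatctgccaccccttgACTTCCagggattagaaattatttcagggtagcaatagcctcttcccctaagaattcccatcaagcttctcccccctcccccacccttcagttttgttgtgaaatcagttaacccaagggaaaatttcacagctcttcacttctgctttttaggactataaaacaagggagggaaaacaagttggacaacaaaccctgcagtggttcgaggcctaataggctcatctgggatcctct
Procr: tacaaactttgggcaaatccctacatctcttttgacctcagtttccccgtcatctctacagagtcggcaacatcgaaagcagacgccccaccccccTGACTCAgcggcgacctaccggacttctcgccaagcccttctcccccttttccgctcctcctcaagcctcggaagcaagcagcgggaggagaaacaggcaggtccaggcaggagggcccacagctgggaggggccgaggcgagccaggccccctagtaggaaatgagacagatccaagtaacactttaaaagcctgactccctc
Mpo: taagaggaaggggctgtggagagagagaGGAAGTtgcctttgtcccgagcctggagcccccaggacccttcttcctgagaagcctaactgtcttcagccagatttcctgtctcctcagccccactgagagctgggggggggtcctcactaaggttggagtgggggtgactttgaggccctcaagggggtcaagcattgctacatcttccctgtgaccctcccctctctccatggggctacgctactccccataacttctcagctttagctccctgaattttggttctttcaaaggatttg

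Of the 509 genes that rose, 385 had at least 1 such window, 502 windows in all, and of the 298 that fell 221 had 278 windows. All tested genes gave 12334 windows from 9683 genes. On both strands, the RUNX core TGTGGT was in 12.7% of the windows of genes that rose, 9.71% of those of genes that fell and 12.7% of all. The EVI1 core GACAAG was in 14.3%, 10.8% and 12.0% in the same order, and GATAAG, which GATA factors and EVI1 bind, in 7.57%, 5.04% and 5.33%. The ETS core GGAAGT was in 26.9%, 23.4% and 28%, and the AP-1 motif TGANTCA in 6.18%, 5.76% and 4.99%. None of the 5 motifs contains another. No test was run on these shares, and a match is a description of the letters and not a binding site.

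Genes shared by many blood cells rose in part. Of 33 tested pan-leukocyte genes, 9 rose and 1 fell (median log2 0.57, against −0.05 over all genes). Among all tested genes 3.82% rose and 2.24% fell. Coro1a, an actin regulator of leukocytes, was at 55.1 and 45.7 FPKM in PlusDox HE2 and 3.70 and 6.72 FPKM in NoDox HE2 (3.09 ± 0.32, adjusted p = 0.000438). Ptprc, the CD45 phosphatase of all nucleated blood cells, was at 8.43 and 14.8 FPKM in PlusDox HE2 and 0.590 and 1.17 FPKM in NoDox HE2 (2.72 ± 0.27, adjusted p = 0.000436). Both PlusDox libraries were well above both NoDox libraries for each gene. Spn, the leukocyte sialoglycoprotein CD43, was at 4.03 and 3.50 FPKM in PlusDox HE2 and 0.373 and 0.835 FPKM in NoDox HE2 (1.58 ± 0.21). Ptpn6, Cd44, Itga4, Myo1g, Dock2 and Pik3cg also rose. Ptpn7, a haematopoietic phosphatase, fell to 3.88 and 1.73 FPKM in PlusDox HE2, against 10.1 and 9.63 FPKM in NoDox HE2 (−1.57 ± 0.30, adjusted p = 0.0103). The list had 3 rises without NoDox HE2 replicate 1, 3 without PlusDox HE2 replicate 1 and 4 without PlusDox HE2 replicate 2. Ptpn7 did not pass without NoDox HE2 replicate 1 or PlusDox HE2 replicate 2.

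The myeloid genes moved in both directions. Of 23 tested myeloid receptors and adaptors with immunoreceptor motifs, 4 rose and 2 fell, where 3.82% of all tested genes rose and 2.24% fell. Tyrobp, the adaptor DAP12, was at 35.8 and 31.5 FPKM in PlusDox HE2 and 6.67 and 9.42 FPKM in NoDox HE2 (1.95 ± 0.28, adjusted p = 0.0026). Cd68, a macrophage lysosomal glycoprotein, was at 21.4 and 16.6 FPKM in PlusDox HE2 and 6.55 and 5.80 FPKM in NoDox HE2 (1.47 ± 0.21). Both were stable calls, and Clec7a, the beta-glucan receptor dectin 1, and Csf2ra, the GM-CSF receptor, rose as well. Csf3r, the receptor of the granulocyte factor G-CSF, fell to 2.05 and 1.21 FPKM in PlusDox HE2, against 5.38 and 6.24 FPKM in NoDox HE2 (−1.39 ± 0.25, adjusted p = 0.00833). Fcgr3, an Fc receptor, fell too (−1.04 ± 0.26). The neutrophil granule gene Mpo and Cst7, a protease inhibitor of granules, were the 2 of 15 tested granule and lysosomal genes that fell, while Lyz2 was at 14.1 and 13.7 FPKM in PlusDox HE2 and 13.7 and 17.4 FPKM in NoDox HE2. Clec7a, Csf2ra and Cst7 did not pass without NoDox HE2 replicate 1 (adjusted p = 0.165 to 0.194), nor did these 3, Csf3r and Fcgr3 without PlusDox HE2 replicate 2 (0.0729 to 0.283). Csf2ra, Fcgr3 and Cst7 did not pass without NoDox HE2 replicate 2 (0.0505 to 0.159), or Csf2ra and Cst7 without PlusDox HE2 replicate 1 (0.0502 to 0.096). The summed level of 7 myeloid markers was 44.4 and 37.1 FPKM in PlusDox HE2 and 42.2 and 46.2 FPKM in NoDox HE2.

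Of 34 tested transcription factors of blood, 3 rose and none fell (median 0.07), where 3.82% of all tested genes rose and 2.24% fell. Spi1, the myeloid factor PU.1, was at 71.9 and 55.4 FPKM in PlusDox HE2 and 25.3 and 23.5 FPKM in NoDox HE2 (1.34 ± 0.27, adjusted p = 0.0154). Bcl11a, a factor of lymphoid and stem cells, was at 3.73 and 4.14 FPKM in PlusDox HE2 and 0.906 and 1.23 FPKM in NoDox HE2 (1.26 ± 0.26). Cebpa, which drives granulocyte fate, rose at a low level, with 1.50 and 1.20 FPKM in PlusDox HE2 and 0.243 and 0.513 FPKM in NoDox HE2 (0.78 ± 0.20, adjusted p = 0.0417). Gata2, a stem cell factor, was at 24.5 and 16.2 FPKM in PlusDox HE2 and 18.8 and 15.0 FPKM in NoDox HE2, and did not pass. None of these 3 calls was stable. None of the 3 passed without NoDox HE2 replicate 1 (adjusted p = 0.085 to 0.294). Spi1 and Cebpa did not pass without NoDox HE2 replicate 2 (0.0511 to 0.0533) or without PlusDox HE2 replicate 1 (0.0712 to 0.14), nor Bcl11a and Cebpa without PlusDox HE2 replicate 2 (0.11 to 0.139).

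Of 15 tested myeloid granule and lysosomal genes, 5 rose, and 2 of these by a large amount. Ctsh, the lysosomal aminopeptidase cathepsin H (chromosome 9, 90054267 to 90076095), had the largest fold of all called genes. It was at 36.2 and 32.2 FPKM in PlusDox HE2 and 0.252 and 1.25 FPKM in NoDox HE2 (4.39 ± 0.31, adjusted p = 5.08e-05). Naaa, a lysosomal amidase that breaks down N-acylethanolamines, was at 7.55 and 6.58 FPKM in PlusDox HE2 and 0.230 and 0.414 FPKM in NoDox HE2 (2.61 ± 0.20, adjusted p = 8.22e-05). Lgmn, an asparaginyl protease, was at 62.0 and 53.6 FPKM in PlusDox HE2 and 22.9 and 21.4 FPKM in NoDox HE2 (1.34 ± 0.22). These 3 were stable calls. Ctsl and Cst3, a lysosomal protease and a secreted inhibitor of such proteases, rose by less (0.96 ± 0.23 and 1.15 ± 0.23). Neither passed without NoDox HE2 replicate 1 (adjusted p = 0.121 to 0.283) or PlusDox HE2 replicate 1 (0.0509 to 0.0635), nor Ctsl without PlusDox HE2 replicate 2 (0.22). Ctsd, the aspartic protease of lysosomes, was at 242 and 207 FPKM in PlusDox HE2 and 217 and 240 FPKM in NoDox HE2, and neither it nor Ctsb, Ctsc, Ctsz or Ctss passed. Ctsb was at 40.6 and 45.6 FPKM in PlusDox HE2 and 24.3 and 34.4 FPKM in NoDox HE2.

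Il1b was the largest of a few inflammatory rises. Among 24 tested genes of interleukin 1 and Toll-like receptor signalling, Il1b and Irak3, an inhibitor of the pathway, rose and none fell (median 0.35). Irak3 was at 2.89 and 2.45 FPKM in PlusDox HE2 and 0.302 and 0.818 FPKM in NoDox HE2 (1.25 ± 0.22, adjusted p = 0.00641), and did not pass without NoDox HE2 replicate 1 (0.0808). Ltb, lymphotoxin beta, had the smallest p of the comparison, at 10.1 and 10.3 FPKM in PlusDox HE2 and 0.337 and 0.336 FPKM in NoDox HE2 (3.06 ± 0.18, adjusted p = 1.43e-05). Traf1, an adaptor of TNF receptors, was the other rise among 14 tested genes of the TNF and lymphotoxin family, at 1.93 and 2.12 FPKM in PlusDox HE2 and 0 and 0.145 FPKM in NoDox HE2 (1.50 ± 0.20). The receptor of lymphotoxin, Ltbr, was at 42.9 and 35.6 FPKM in PlusDox HE2 and 31.3 and 32.4 FPKM in NoDox HE2. Nfkb1 was at 33.7 and 35.9 FPKM in PlusDox HE2 and 23.3 and 28.4 FPKM in NoDox HE2, and neither it nor the inhibitor Nfkbia passed.

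Of 32 tested interferon-inducible genes, 5 rose, none fell and 29 had a fold above 0 (median 0.68, against −0.05 over all genes). Among all tested genes 3.82% rose and 2.24% fell. Ifitm1, a membrane restriction factor, was at 107 and 81.1 FPKM in PlusDox HE2 and 10.9 and 19.9 FPKM in NoDox HE2 (2.58 ± 0.45, adjusted p = 0.00654). The class I histocompatibility gene H2-K1 was at 38.1 and 39.4 FPKM in PlusDox HE2 and 16.2 and 19.3 FPKM in NoDox HE2 (1.09 ± 0.22), and H2-D1 rose by 1.38 ± 0.33. Oas1a, an antiviral sensor, and Psmb9, an immunoproteasome subunit, completed the rises, Psmb9 at a low level of 0.886 and 2.09 FPKM in PlusDox HE2 and 0.113 and 0.237 FPKM in NoDox HE2. None of the 5 was a stable call. Without NoDox HE2 replicate 1 none of them passed (adjusted p = 0.0743 to 0.284), and without PlusDox HE2 replicate 2 only Ifitm1 did (0.0994 to 0.383 for the other 4). H2-K1, H2-D1 and Oas1a did not pass without PlusDox HE2 replicate 1 (0.0514 to 0.074), nor Psmb9 without NoDox HE2 replicate 2 (0.0875).

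**Figure D2:**
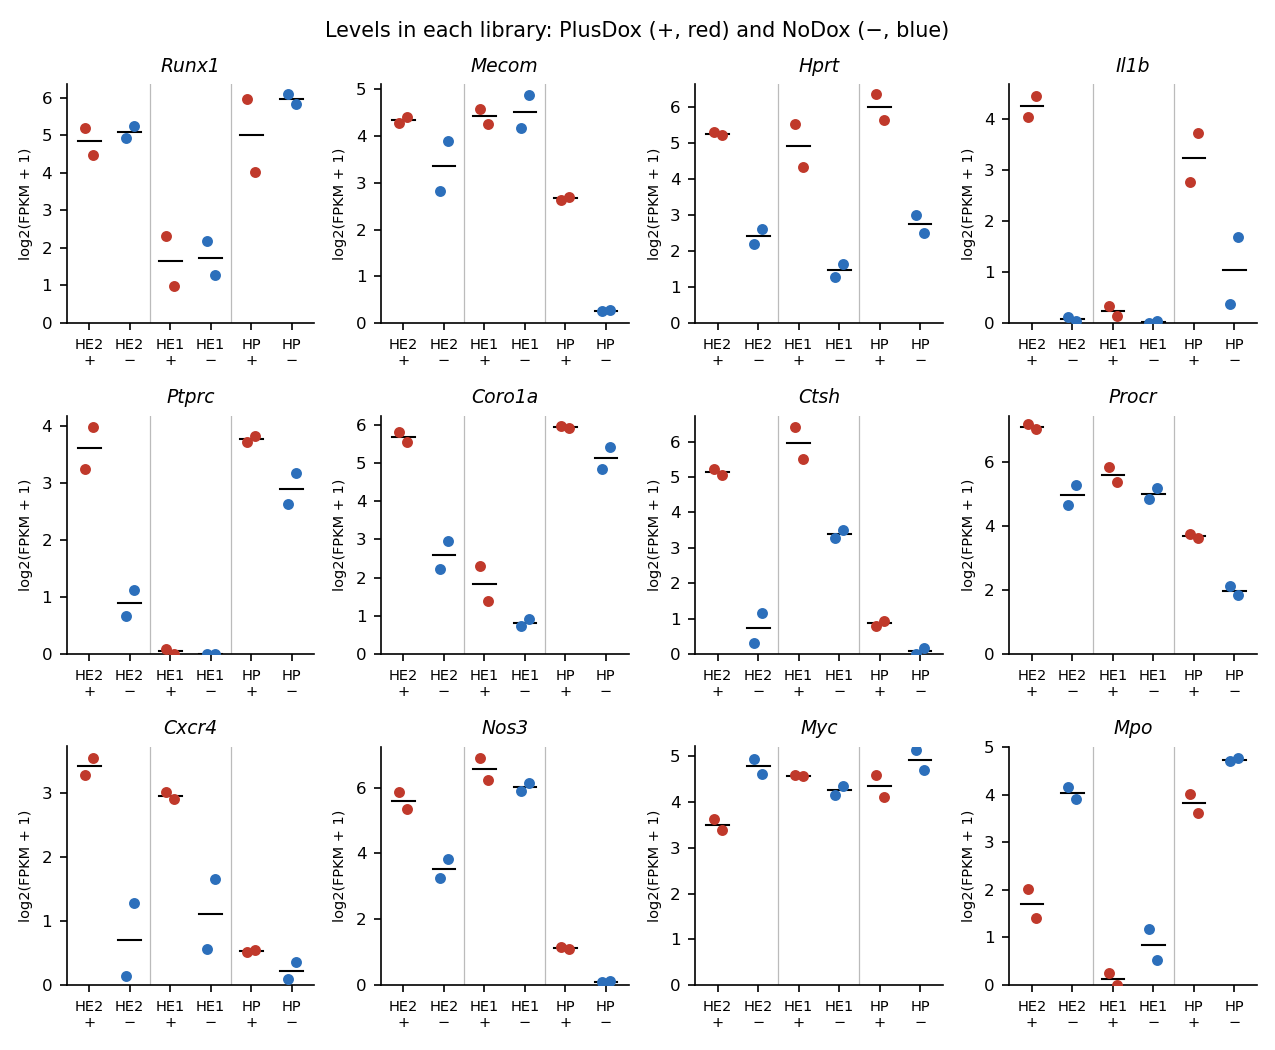
Dots give log2(FPKM + 1) of 12 genes in each library and bars the mean of 2 libraries, for HE2, HE1 and HP, with PlusDox (+, red) left of NoDox (−, blue). Il1b, Ptprc and Coro1a in PlusDox HE2 stand well above NoDox HE2, Runx1 overlaps between the groups, and Myc and Mpo are lower in PlusDox HE2.

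Most arterial genes rose. Of 16 tested, 10 rose and none fell (median 1.43), and both PlusDox libraries exceeded both NoDox libraries for 14, where 22.3% of all tested genes did so. Cxcr4, the receptor of the chemokine CXCL12, was at 8.69 and 10.7 FPKM in PlusDox HE2 and 0.102 and 1.42 FPKM in NoDox HE2 (2.70 ± 0.38, adjusted p = 0.00211). Vegfc, a growth factor for lymphatic and arterial cells, was at 22.7 and 27.3 FPKM in PlusDox HE2 and 3.04 and 5.78 FPKM in NoDox HE2 (2.31 ± 0.30, adjusted p = 0.0015). Gja5, the arterial gap junction protein connexin 40, was at 19.5 and 35.5 FPKM in PlusDox HE2 and 0.610 and 5.40 FPKM in NoDox HE2 (3.09 ± 0.69, adjusted p = 0.0226). The NoDox libraries differed widely for Gja5, and replicate 1 was the lower. Sema3g, an arterial semaphorin, was at 19.3 and 22.6 FPKM in PlusDox HE2 and 1.99 and 6.85 FPKM in NoDox HE2 (2.18 ± 0.41). Tm4sf1, Bmx and Gja4 rose as well. Efnb2, the arterial ephrin, was at 9.67 and 11.4 FPKM in PlusDox HE2 and 7.27 and 26.4 FPKM in NoDox HE2, and Sox17 was at 8.66 and 18.2 FPKM in PlusDox HE2 and 4.95 and 5.91 FPKM in NoDox HE2, and neither passed.

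The Notch pathway, through which ligands on one cell activate receptors on the next and set arterial identity, had 5 rises and no falls among 18 tested genes (median 0.54). Its rises were ligands and targets. The ligand Jag1 was at 18.0 and 16.8 FPKM in PlusDox HE2 and 4.18 and 6.63 FPKM in NoDox HE2 (1.55 ± 0.23, adjusted p = 0.00305), and was a stable call. The ligand Dll4 was at 9.23 and 7.34 FPKM in PlusDox HE2 and 0.482 and 2.66 FPKM in NoDox HE2 (1.99 ± 0.40, adjusted p = 0.0137). Jag2 rose by 1.46 ± 0.27, and the target repressors Hey1 and Hey2 by 1.45 ± 0.34 and 1.16 ± 0.24. The receptor Notch1 was at 51.1 and 39.8 FPKM in PlusDox HE2 and 26.1 and 34.4 FPKM in NoDox HE2, and the target Nrarp was at 30.5 and 35.4 FPKM in PlusDox HE2 and 26.7 and 30.3 FPKM in NoDox HE2. Neither passed.

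Other endothelial genes moved in part. Of 21 tested junction and surface genes, 6 rose and none fell (median 0.89). Ocln, the tight junction protein occludin, was at 21.8 and 25.6 FPKM in PlusDox HE2 and 1.16 and 4.25 FPKM in NoDox HE2 (2.87 ± 0.35, adjusted p = 0.0011). Cldn5, a claudin of vessels, was at 60.0 and 86.3 FPKM in PlusDox HE2 and 11.9 and 34.1 FPKM in NoDox HE2 (1.78 ± 0.44, adjusted p = 0.0367). Esam, Egfl7, Thsd1 and Selp rose too. Cdh5, the VE-cadherin of all endothelium, was at 317 and 292 FPKM in PlusDox HE2 and 160 and 253 FPKM in NoDox HE2, and did not pass, and Pecam1 and Kdr did not pass either. Among 21 tested vasoactive and coagulation genes, Procr, Nos3, Vwf, F2rl1 and Ece1 rose and F2rl2 fell. Nos3, endothelial nitric oxide synthase, was at 56.7 and 39.9 FPKM in PlusDox HE2 and 8.43 and 13.2 FPKM in NoDox HE2 (2.07 ± 0.27, adjusted p = 0.00146). Vwf, the carrier of clotting factor VIII, was at 7.42 and 6.86 FPKM in PlusDox HE2 and 1.49 and 1.96 FPKM in NoDox HE2 (1.58 ± 0.23). Both were stable calls. Of 17 tested endothelial transcription factors Epas1, a hypoxia factor, rose (1.54 ± 0.35) and none fell, where 3.82% of all tested genes rose and 2.24% fell. Of 9 tested venous and lymphatic genes, Aplnr and Nrp2 fell (−1.39 ± 0.31 and −0.82 ± 0.18), while Stab1, a scavenger receptor, rose (1.45 ± 0.31). The other 6, among them Ephb4, were not called.

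The arterial and endothelial counts moved with single libraries. Without NoDox HE2 replicate 1, the library nearest to HP, 2 of the 16 arterial genes, 1 of the 18 Notch genes and 1 of the 21 junction genes were called higher. Without PlusDox HE2 replicate 2 these counts were 2, 2 and 2, and without PlusDox HE2 replicate 1 they were 7, 2 and 1. Cxcr4, Vegfc, Jag1, Ocln, Nos3, Procr, Vwf and F2rl2 were called in all 4 fits. Of the other 20 calls named above, only Aplnr passed without NoDox HE2 replicate 1 (adjusted p = 0.051 to 0.313 for the rest), and only Jag2 and Selp without PlusDox HE2 replicate 2 (0.0536 to 0.235 for the rest). Gja5, Sema3g, Tm4sf1, Bmx, Jag2 and Ece1 passed without PlusDox HE2 replicate 1, and the others did not (0.053 to 0.108). Hey1, F2rl1, Aplnr and Nrp2 did not pass without NoDox HE2 replicate 2 (0.0511 to 0.117). The summed level of the 8 endothelial markers was also higher in both PlusDox libraries than in both NoDox libraries, with 1 of the 8 (Egfl7) called, and its part in these rises was not tested.

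Of 28 epithelial genes, 11 passed the filter of 1 FPKM in 2 libraries, which a gene can do through the PlusDox libraries alone. Among these 11, 8 were called higher and none lower (median 1.71), 7 of them stable, and the filter and the choice of the list bear on these counts. Pdzk1ip1, a small membrane protein of kidney and blood stem cells, was at 79.6 and 42.1 FPKM in PlusDox HE2 and 6.21 and 2.96 FPKM in NoDox HE2 (3.46 ± 0.58, adjusted p = 0.00542). Tspan8, a tetraspanin, was at 45.0 and 43.2 FPKM in PlusDox HE2 and 1.87 and 5.77 FPKM in NoDox HE2 (3.36 ± 0.34, adjusted p = 0.000438). Krt18, a keratin of simple epithelia, was at 60.7 and 56.3 FPKM in PlusDox HE2 and 17.1 and 17.3 FPKM in NoDox HE2 (1.71 ± 0.22), whereas its partner Krt8 was at 14.0 and 16.5 FPKM in PlusDox HE2 and 14.5 and 15.1 FPKM in NoDox HE2. St14, the membrane protease matriptase, rose by 1.27 ± 0.19, and its inhibitor Spint1 by 1.99 ± 0.25. Prom1, the glycoprotein CD133, and Mall, a raft protein, also rose. The defining epithelial genes Epcam and Cdh1 and the other untested members of this list of 28 did not reach 1 FPKM in 2 libraries.

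Stem and progenitor surface genes had 6 rises among 19 tested (median 0.36). Besides Procr, Prom1 and Esam, these were Ly6a, the stem cell antigen Sca-1, Ly6e and Angpt1, the ligand of TIE2. Ly6a was at 20.9 and 14.8 FPKM in PlusDox HE2 and 4.95 and 6.63 FPKM in NoDox HE2 (1.46 ± 0.27, adjusted p = 0.00833). Kit was at 47.8 and 33.0 FPKM in PlusDox HE2 and 66.3 and 74.2 FPKM in NoDox HE2 and Cd34 was at 287 and 373 FPKM in PlusDox HE2 and 179 and 329 FPKM in NoDox HE2. Neither passed. None of Ly6a, Ly6e and Angpt1 passed without NoDox HE2 replicate 1 (adjusted p = 0.0544 to 0.108), Ly6a did not without PlusDox HE2 replicate 1 (0.0519) and Angpt1 did not without PlusDox HE2 replicate 2 (0.0993).

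Megakaryocyte and erythroid genes held single calls in both directions. Of 28 tested megakaryocyte genes, Vwf, Selp and Fyb rose, and F2rl2, P2rx1 and Itgb3 were among those that fell (median −0.16). F2rl2, a thrombin receptor of mouse platelets, was at 2.74 and 1.64 FPKM in PlusDox HE2 and 10.7 and 8.37 FPKM in NoDox HE2 (−1.74 ± 0.25, adjusted p = 0.0024). Itgb3, the beta chain of the platelet fibrinogen receptor, was at 136 and 101 FPKM in PlusDox HE2 and 203 and 202 FPKM in NoDox HE2 (−0.78 ± 0.19), and its partner Itga2b, CD41, was at 112 and 49.7 FPKM in PlusDox HE2 and 166 and 94.9 FPKM in NoDox HE2 and did not pass. Of 38 tested erythroid genes, Rhag rose and Alas2 and Sptb fell (median −0.02), shares near the 3.82% higher and 2.24% lower of all genes. Rhag, a membrane channel of the Rhesus complex, was at 3.09 and 3.33 FPKM in PlusDox HE2 and 0.120 and 0.246 FPKM in NoDox HE2 (1.83 ± 0.18, adjusted p = 0.000436). Alas2, which starts haem synthesis in red cells, fell to 2.32 and 3.04 FPKM in PlusDox HE2, against 8.83 and 8.91 FPKM in NoDox HE2 (−1.43 ± 0.22, adjusted p = 0.0037). The embryonic globin Hbb-bh1 was at 739 and 967 FPKM in PlusDox HE2 and 981 and 863 FPKM in NoDox HE2, and the groups overlapped. F2rl2, Vwf, Rhag and Alas2 were stable calls. Fyb, P2rx1, Itgb3 and Sptb did not pass without NoDox HE2 replicate 1 (adjusted p = 0.0891 to 0.262). Fyb, P2rx1 and Itgb3 did not pass without PlusDox HE2 replicate 2 (0.0645 to 0.314), P2rx1 and Itgb3 without NoDox HE2 replicate 2 (0.0517 to 0.0977), or Sptb without PlusDox HE2 replicate 1 (0.0592).

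**Figure D3:**
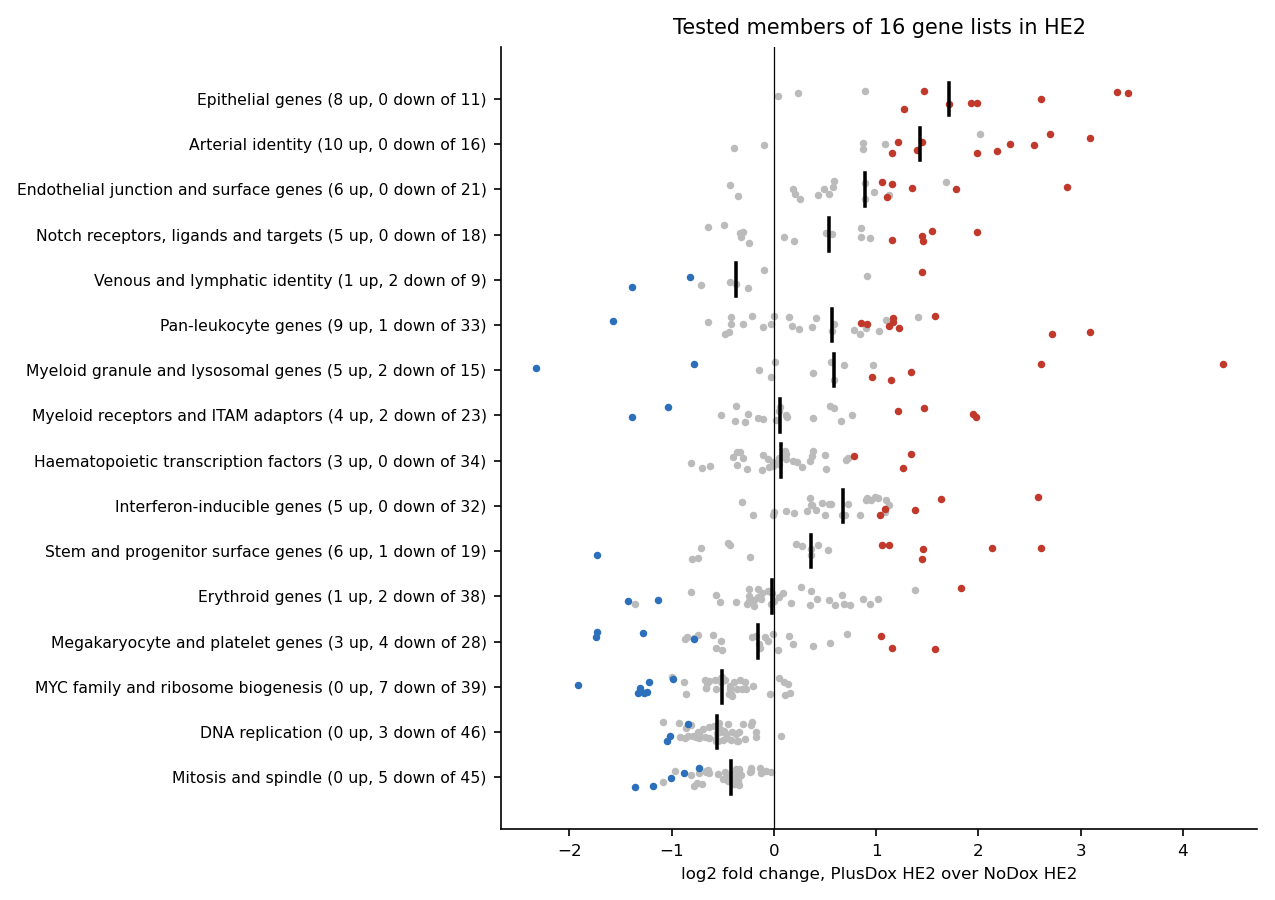
Each dot is a tested member of 1 of 16 gene lists, placed by its log2 fold change, PlusDox HE2 over NoDox HE2, and coloured red where called higher, blue where called lower and grey where not called; the vertical bar is the list's median. The medians run from 1.71 for epithelial and 1.43 for arterial genes to −0.56 for DNA replication, and the myeloid lists hold calls on both sides of 0.

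Genes of growth and division supplied falls. Of 39 tested genes of the MYC family and ribosome biogenesis, 7 fell and none rose (median −0.51), where 2.24% of all tested genes fell and 3.82% rose. Myc was at 11.3 and 9.53 FPKM in PlusDox HE2 and 29.9 and 23.6 FPKM in NoDox HE2 (−1.27 ± 0.22, adjusted p = 0.00636). Ncl, the nucleolar protein nucleolin, fell to 52.8 and 27.5 FPKM in PlusDox HE2, against 160 and 135 FPKM in NoDox HE2 (−1.92 ± 0.42, adjusted p = 0.0216). Fbl, Rrs1, Gar1, Nolc1 and Odc1 fell as well. Npm1, the most abundant nucleolar gene of the list, was at 947 and 935 FPKM in PlusDox HE2 and 1179 and 1112 FPKM in NoDox HE2, and did not pass. Of 46 tested DNA replication genes, Lig1, Uhrf1 and Mcm4 fell, where 2.24% of all tested genes fell, and none rose. Folds were below 0 for 45 of these 46 genes (median −0.56, against −0.05 over all genes). Both PlusDox libraries were below both NoDox libraries for 41 of them, where 28% of all tested genes were. Of 45 tested mitosis genes, Cdca8, Aurka, Foxm1, Birc5 and Mad2l1 fell and none rose (median −0.42), where 2.24% of all tested genes fell. Aurka, a spindle kinase, was at 20.0 and 15.9 FPKM in PlusDox HE2 and 46.5 and 37.1 FPKM in NoDox HE2 (−1.18 ± 0.22, adjusted p = 0.0105). Rrm2, the ribonucleotide reductase subunit that limits nucleotide supply in S phase, fell to 33.7 and 23.1 FPKM in PlusDox HE2, against 87.1 and 74.6 FPKM in NoDox HE2 (−1.50 ± 0.23, adjusted p = 0.00383), and was stable. In its list of 33 tested genes of nucleotide supply Hprt and Pnp rose (median −0.57). Rrm2 and Hprt were the only stable calls among the ribosome biogenesis, replication, mitosis and nucleotide genes. Cdkn1c, the inhibitor p57 that halts the cycle, was at 24.9 and 18.9 FPKM in PlusDox HE2 and 4.32 and 5.49 FPKM in NoDox HE2 (1.95 ± 0.28, adjusted p = 0.00243), and was stable. Ccne1, cyclin E1, fell (−1.03 ± 0.25). Cdkn1c and Ccne1 were the only calls among 31 tested CDK inhibitors and cyclins (median −0.34), shares near the 3.82% higher and 2.24% lower of all genes.

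The falls in growth and division genes moved strongly with the fit. Without NoDox HE2 replicate 1 limma called none of the ribosome biogenesis, replication or mitosis genes, and 9, 7 and 14 had an unadjusted p below 0.05. Without PlusDox HE2 replicate 2 it again called none, and 9, 6 and 12 had such a p. With FPKM rescaled without the 3 abundant features, which held 8.81% of the FPKM of PlusDox HE2 replicate 2, the calls were 9, 14 and 11, and after median scaling 10, 13 and 12. For the 15 genes of those lists named above and Ccne1, the adjusted p was 0.0669 to 0.292 without NoDox HE2 replicate 1 and 0.0611 to 0.335 without PlusDox HE2 replicate 2. Fbl, Lig1, Mcm4 and Mad2l1 also missed without NoDox HE2 replicate 2 (0.0561 to 0.102), and Mad2l1 without PlusDox HE2 replicate 1 (0.0782).

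Mitochondrial and RNA processing genes held some of the larger falls. Of 26 tested genes of mitochondrial import, chaperones and redox, 4 fell and none rose. Mrpl12, a protein of the mitochondrial ribosome, was at 39.4 and 16.3 FPKM in PlusDox HE2 and 141 and 119 FPKM in NoDox HE2 (−2.30 ± 0.36, adjusted p = 0.0037). Of 77 tested mitochondrial ribosomal proteins 3 fell, where 2.24% of all tested genes fell, and their median was −0.15. Txn2, mitochondrial thioredoxin, was at 13.6 and 9.23 FPKM in PlusDox HE2 and 49.7 and 44.2 FPKM in NoDox HE2 (−1.97 ± 0.29, adjusted p = 0.00274). Mrpl12 and Txn2 were stable calls. A family of 64 tested splicing factors, taken by their symbols after their values were seen, had 9 falls and no rise (median −0.40). Srsf4, a splicing regulator, was at 9.86 and 5.40 FPKM in PlusDox HE2 and 25.2 and 24.5 FPKM in NoDox HE2 (−1.63 ± 0.32, adjusted p = 0.013), and Hnrnpa2b1, an RNA-binding protein, was at 117 and 92.5 FPKM in PlusDox HE2 and 227 and 259 FPKM in NoDox HE2 (−1.21 ± 0.25). Rps16, a ribosomal protein gene with near-identical copies and therefore uncertain, had the lowest fold of all called genes, at 49.9 and 37.6 FPKM in PlusDox HE2 and 739 and 674 FPKM in NoDox HE2 (−3.99 ± 0.78, adjusted p = 0.0124). It was the only call among 82 tested cytosolic ribosomal proteins, whose median was 0.05 and whose other members lay between −0.61 and 0.29. Srsf4, Hnrnpa2b1 and Rps16 did not pass without NoDox HE2 replicate 1 (adjusted p = 0.081 to 0.0891) or without PlusDox HE2 replicate 2 (0.0766 to 0.141), nor Hnrnpa2b1 without NoDox HE2 replicate 2 (0.0672).

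Signalling genes moved in both directions. Of 30 tested genes of FGF, PDGF and kinase feedback, 7 rose and 4 fell (median 0.24), and none of the 7 rises was stable. The rises included Dusp6 and Dusp5, phosphatases that switch off ERK, and Etv4 and Etv5, ETS factors induced by it. Dusp6 was at 35.8 and 48.7 FPKM in PlusDox HE2 and 7.89 and 17.0 FPKM in NoDox HE2 (1.76 ± 0.36, adjusted p = 0.0149), and Etv4 was at 3.75 and 3.12 FPKM in PlusDox HE2 and 0.353 and 0.625 FPKM in NoDox HE2 (1.58 ± 0.27). Etv5, Dusp5 and Pdgfa rose by 1.26 to 1.57. The feedback inhibitors Spry1, Spry2, Spry4, Spred1 and Spred2 were not called, Spry2 being at 9.40 and 5.12 FPKM in PlusDox HE2 and 10.9 and 12.0 FPKM in NoDox HE2. The falls were of Pdgfrb, which did not pass without NoDox HE2 replicate 1 (adjusted p = 0.188) or PlusDox HE2 replicate 2 (0.151), and of insulin-like growth factor genes. Igfbp5, a binding protein of these factors, was at 1.39 and 0.662 FPKM in PlusDox HE2 and 11.4 and 6.60 FPKM in NoDox HE2 (−2.28 ± 0.28, adjusted p = 0.00101), a stable call. In the WNT list, Lgr5 and Lgr6, receptors of R-spondins, rose and were stable, Lgr5 at 6.50 and 4.19 FPKM in PlusDox HE2 and 0.613 and 0.479 FPKM in NoDox HE2 (2.01 ± 0.24, adjusted p = 0.00101). The frizzled receptor Fzd10 fell to 2.44 and 1.28 FPKM in PlusDox HE2, against 17.0 and 6.88 FPKM in NoDox HE2 (−2.09 ± 0.39). Bmp2, a ligand of the BMP pathway, fell to 9.91 and 7.24 FPKM in PlusDox HE2, against 37.7 and 29.3 FPKM in NoDox HE2 (−1.85 ± 0.32, adjusted p = 0.00628), while Bmp4 was at 60.5 and 45.5 FPKM in PlusDox HE2 and 21.3 and 30.0 FPKM in NoDox HE2 and did not pass. Among 21 tested immediate early genes Nr4a1, Nr4a2 and Ier5 rose and none fell (median 0.74). Nr4a1, an orphan nuclear receptor, was at 27.3 and 20.7 FPKM in PlusDox HE2 and 4.07 and 6.40 FPKM in NoDox HE2 (2.02 ± 0.31, adjusted p = 0.0034). Nr4a1 was a stable call. Dusp6, Dusp5, Etv4, Etv5, Pdgfa, Fzd10, Bmp2, Nr4a2 and Ier5 did not pass without NoDox HE2 replicate 1 (adjusted p = 0.0665 to 0.366), and of these only Dusp5, Etv4 and Etv5 passed without PlusDox HE2 replicate 2 (0.0572 to 0.236 for the rest). Nr4a2 and Ier5 did not pass without PlusDox HE2 replicate 1 (0.0981 to 0.133), nor Ier5 without NoDox HE2 replicate 2 (0.0824).

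Matrix, muscle and patterning genes supplied single calls. Hapln1, which links hyaluronan to proteoglycans, was at 37.2 and 36.7 FPKM in PlusDox HE2 and 123 and 151 FPKM in NoDox HE2 (−1.86 ± 0.24, adjusted p = 0.0015). Vcan, the proteoglycan versican, fell to 7.71 and 8.78 FPKM in PlusDox HE2, against 19.7 and 25.9 FPKM in NoDox HE2 (−1.35 ± 0.19, adjusted p = 0.0024), and Has2, which makes hyaluronan, fell by 1.71 on the log2 scale (adjusted p = 0.0393). Vcan and Has2 belong to a list of 39 tested collagens, laminins and matrix proteins. In that list 3 fell and 1 rose, 23 had a fold above 0 and the median was 0.19. Tnnt2, cardiac troponin T, was at 0 and 0.230 FPKM in PlusDox HE2 and 2.28 and 2.65 FPKM in NoDox HE2 (−1.64 ± 0.26). Kctd12, an auxiliary subunit of GABA-B receptors, had the second largest fall, at 3.40 and 0 FPKM in PlusDox HE2 and 22.3 and 29.5 FPKM in NoDox HE2 (−3.67 ± 0.59, adjusted p = 0.00471). In the HOX list Hoxd8 and Hoxd4 rose and Hoxb5 and Hoxb2 fell, Hoxd8 being at 18.9 and 18.7 FPKM in PlusDox HE2 and 6.52 and 7.08 FPKM in NoDox HE2 (1.35 ± 0.22, adjusted p = 0.00437). Smtnl1, a smooth muscle regulator, was at 17.3 and 11.3 FPKM in PlusDox HE2 and 0.204 and 0.190 FPKM in NoDox HE2 (3.65 ± 0.43, adjusted p = 0.000945), and Mogat2, an acyltransferase of fat absorption, was at 54.4 and 35.4 FPKM in PlusDox HE2 and 2.04 and 1.75 FPKM in NoDox HE2 (3.95 ± 0.29, adjusted p = 5.08e-05). Hapln1, Vcan, Tnnt2, Kctd12, Hoxd8, Smtnl1 and Mogat2 were stable calls. Has2, Hoxd4, Hoxb5 and Hoxb2 did not pass without NoDox HE2 replicate 1 (adjusted p = 0.136 to 0.295) or PlusDox HE2 replicate 2 (0.0903 to 0.256). Has2, Hoxd4 and Hoxb2 did not pass without PlusDox HE2 replicate 1 (0.0519 to 0.136), nor Has2 and Hoxd4 without NoDox HE2 replicate 2 (0.0561 to 0.0803).

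The same contrast in the other populations, which shares no library with that in HE2, called 182 genes in HE1 (1.37%) and 111 in HP (0.834%). The contrasts do share the spread estimated for each gene over all 12 libraries, so the overlaps below are not between independent calls. Of the 509 genes that rose in HE2, 94 (18.5%) also rose in HE1, where they were 73.4% of the 128 rises (0.961% of genes tested), and 58 (11.4%) rose in HP, where they were 72.5% of the 80 rises (0.601%). Of the 298 that fell, 21 (7.05%) also fell in HE1, where they were 38.9% of the 54 falls (0.406%), and 7 (2.35%) fell in HP, where they were 22.6% of the 31 falls (0.233%). Hprt, Mogat2, Ltb, Stk26, Slc16a9, Cdkn1c, Nqo1, Sh3bgrl2 and Pak1 were called higher in all 3 populations, and none was called lower in all 3. Slc16a9, a carnitine transporter, was at 6.42 and 6.29 FPKM in PlusDox HE2 and 0.218 and 0.327 FPKM in NoDox HE2 (2.53 ± 0.21, adjusted p = 0.000121), with folds of 1.47 in HE1 and 1.46 in HP. Pak1, a kinase downstream of RAC, was at 12.6 and 12.2 FPKM in PlusDox HE2 and 3.79 and 3.56 FPKM in NoDox HE2 (1.52 ± 0.17, adjusted p = 0.000681), with 0.91 in HE1 and 1.08 in HP.

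A call in one population and none in another does not show a difference, so the difference of the 2 folds was tested for every gene. Against HE1, 6 of 13316 genes differed (0.0451%), each with an adjusted p of 0.0397. Il1b had log2 folds of 4.17 in HE2 and 0.21 in HE1 (difference 3.96 ± 0.55), and in HE1 it was at 0.254 and 0.105 FPKM in PlusDox and 0 and 0.0293 FPKM in NoDox. Ptprc had 2.72 in HE2 and 0.05 in HE1 (2.67 ± 0.38), and in HE1 it was at 0.0659 and 0 FPKM in PlusDox and listed at 0 in both NoDox libraries. Naaa had 2.61 in HE2 and 0.45 in HE1 (2.16 ± 0.29), and Rhag had 1.83 in HE2 and 0.03 in HE1 (1.80 ± 0.26). Ctsj, a cathepsin known from mouse placenta, was at 2.19 and 2.41 FPKM in PlusDox HE2 and listed at 0 in both NoDox HE2 libraries. Tirap, an adaptor of Toll-like receptors, went the other way, at 4.96 and 4.77 FPKM in PlusDox HE2 and 7.01 and 7.95 FPKM in NoDox HE2, but 15.0 and 12.6 FPKM in PlusDox HE1 and 3.59 and 4.68 FPKM in NoDox HE1 (difference −2.06 ± 0.27). In HE2 alone Tirap did not pass (adjusted p = 0.121). In HP, limma also called Il1b, Naaa, Rhag and Ctsj higher, with log2 folds of 2.21, 1.81, 1.99 and 1.31 (adjusted p = 0.00149 to 0.0245). Their rises were thus not particular to HE2. Ptprc (0.87, adjusted p = 0.228) and Tirap (0.24, adjusted p = 0.881) were not called in HP.

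Against HP, 2 genes differed (0.015%), each with an adjusted p of 0.0231. Ctsh had a fold of 4.39 in HE2 and 0.78 in HP (difference 3.60 ± 0.44), and in HP it was at 0.745 and 0.921 FPKM in PlusDox and 0 and 0.133 FPKM in NoDox. In HE1, Ctsh was at 84.3 and 44.3 FPKM in PlusDox and 8.72 and 10.3 FPKM in NoDox. Gm34865, a predicted gene named after its values were seen, was at 3.40 and 3.51 FPKM in PlusDox HE2 and 3.41 and 5.40 FPKM in NoDox HE2, and at 6.22 and 3.96 FPKM in PlusDox HP with both NoDox HP libraries listed at 0 (difference −2.84 ± 0.35). None of the genes named here passed in all 4 fits that left out 1 HE2 library, and some genes that passed in those fits were others. The sizes of the named differences kept their sign in these fits. Against HE1 they were 3.75 to 4.16 for Il1b, 2.30 to 3.04 for Ptprc and 2.06 to 2.26 for Naaa. Rhag had 1.72 to 1.88, Ctsj 1.64 to 1.73 and Tirap −2.14 to −1.98. Against HP they were 3.18 to 4.03 for Ctsh and −3.10 to −2.57 for Gm34865. For the other genes the HE2 fold was not shown to differ from the HE1 or HP fold.

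**Figure D4:**
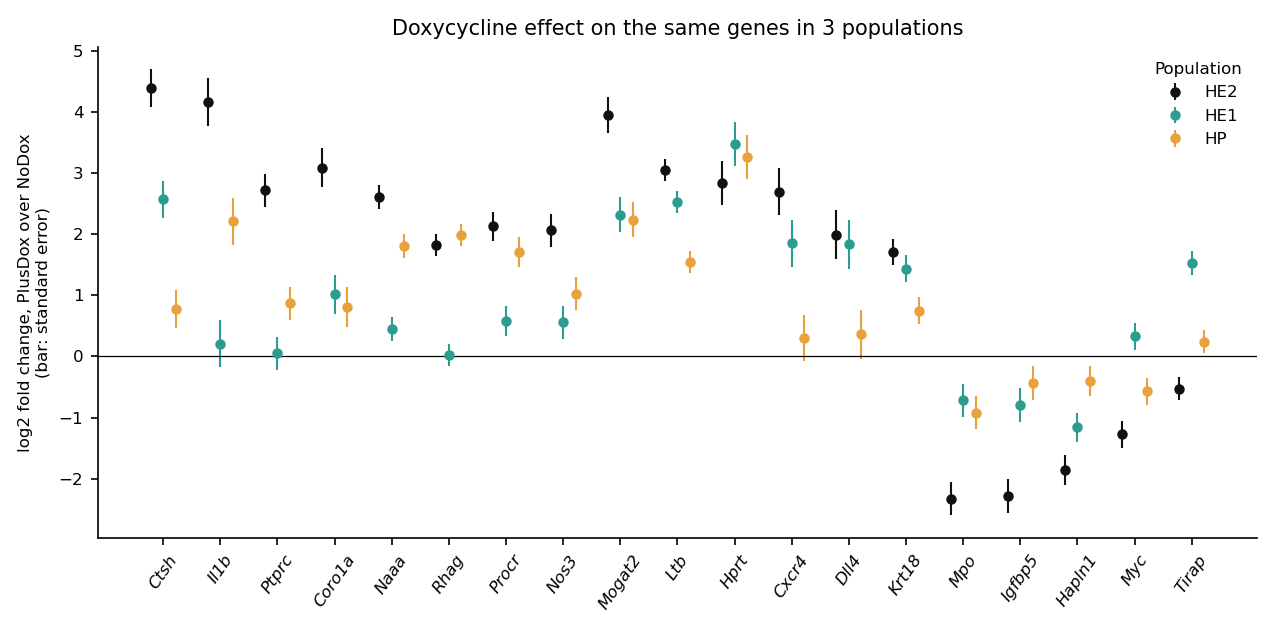
Points give the log2 fold change, PlusDox over NoDox, of 19 genes in HE2 (black), HE1 (green) and HP (orange), with bars of 1 standard error. Il1b, Ptprc, Naaa and Rhag are near 0 in HE1, between 1.83 and 4.17 in HE2 and between 0.87 and 2.21 in HP. Ctsh is at 4.39 in HE2 and 0.78 in HP, and Hprt is high in all 3.

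The step from vessel to blood without doxycycline was used to place the HE2 genes. Between NoDox HP and NoDox HE1, 5409 genes were called (40.6%), 2927 higher in NoDox HP (22%) and 2482 higher in NoDox HE1 (18.6%). Of the genes that rose in HE2, 204 (40.1%) were higher in NoDox HE1 and 107 (21%) higher in NoDox HP. Of the genes that fell, 48 (16.1%) were higher in NoDox HE1 and 116 (38.9%) higher in NoDox HP. The share on the vessel side was thus above that of all genes for the rises, and the share on the blood side was above that of all genes for the falls. The share of rises on the blood side, 21%, was near the 22% of all genes. Coro1a, Ptprc, Spi1 and Tyrobp were among these 107 rises, with path log2 folds, NoDox HP over NoDox HE1, of 4.32, 2.90, 4.92 and 5.28. Nos3, Epas1 and Cldn5 lay on the vessel side, with path folds of −5.90, −4.51 and −4.96. Among the 118 stable rises the vessel share was 32.2% and the blood share 22.9%. Of the 27 stable falls 18.5% were on the vessel side and 40.7% on the blood side. Without NoDox HE2 replicate 1, 31.2% of the 128 rises were higher in NoDox HE1, and without PlusDox HE2 replicate 2 it was 31.7% of 199. The position of the libraries on the first principal component, with both PlusDox HE2 libraries nearer to HE1 than both NoDox HE2 libraries, moved with these shares, and its part in them was not tested.

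**Figure D5:**
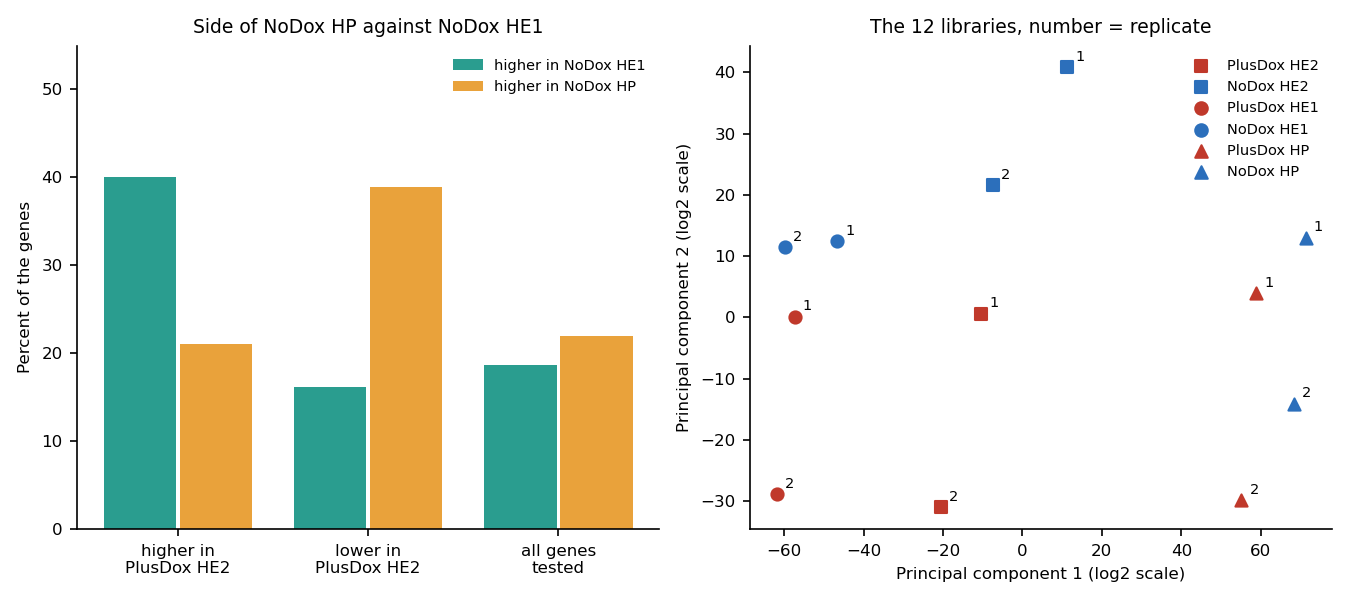
Left, bars give the percent of genes higher in PlusDox HE2, lower in PlusDox HE2 and of all tested genes that were called higher in NoDox HE1 (green) or in NoDox HP (orange). Right, the 12 libraries on the first 2 principal components, with PlusDox red and NoDox blue and replicate numbers beside the points; PlusDox HE2 lies at −10.5 and −20.6 and NoDox HE2 at 11.2 and −7.5 on the first.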

How the data were processed

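RNA-seq of 12 mouse libraries was read, 2 for each of 6 groups. Stranded total RNA libraries were sequenced as paired ends in a pool of 12, per the labels' protocols. Trimmomatic 0.32, HISAT2 2.1.0, StringTie 1.3.3 and mm10 are named in the submitters' processing notes. The deposited values were taken as FPKM, the unit StringTie writes, and give no read counts, so counting error is unknown; relative depth was read from the size of the lowest values. Genes with at least 1 FPKM in at least 2 libraries (13316) were tested on log2(FPKM + 1) with limma 3.58.1 in R 4.3.3, in 1 fit of 6 group means over all 12 libraries, with an intensity trend, 6 residual and 5.83 prior degrees of freedom and Benjamini-Hochberg adjustment over all genes, threshold 0.05, two-sided. Folds of low genes are understated on this scale. A permutation of 2 against 2 libraries could not reach that threshold and was not used. The gene lists and members were chosen with earlier results of these data known. Named genes were the 20 largest rises and falls reaching 5 FPKM with groups apart, up to 8 called and 4 uncalled members of each list, and called differences between populations; Gja4, Pik3cg, Slc16a9, Pak1, Stk26, Sh3bgrl2, Srsf4, Hnrnpa2b1, Lars2, Gm34865, Spry1, Spry2, Spry4, Spred2, Ctsc and Ctss were named after their values were seen. Python 3.11.15 was used for tables.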

Additional observations from a re-analysis of the deposited data

Results flagged for a closer look

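A difference of the doxycycline effect between populations, tested in limma, singled out 8 genes, each given as the log2 fold in HE2 minus that in the other population. Against HE1 these were Il1b at 3.96, Ptprc at 2.67, Naaa at 2.16, Rhag at 1.80, Ctsj at 1.69 and Tirap at −2.06. Against HP they were Ctsh at 3.60 and Gm34865 at −2.84. Ctsj was listed at 0 in both NoDox HE2 libraries and Gm34865 in both NoDox HP libraries. The sizes depend on the pseudocount of 1: at 0.1 they were 5.60 for Il1b, 3.23 for Ptprc, 3.30 for Naaa, 3.40 for Rhag, 4.29 for Ctsj, −2.33 for Tirap, 3.03 for Ctsh and −5.97 for Gm34865, and only that of Gm34865 passed. No group had enough libraries for a test of single outlying samples.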

How the results depend on the processing

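None of the 807 calls changed sign under any alternative. Same-numbered replicate deviations correlated at 0.489 between PlusDox HE2 and NoDox HE2 and above 0.1 in 12 of 15 pairs of groups (−0.1 to 0.526); as 3 pairs fell short and the labels give no shared source, pairing is not established. A replicate block gave 1047 higher (45.6%) and 1249 lower genes, 47 differences from HE1 and 5 from HP, with 28 falls in DNA replication, 18 in mitosis and 17 in ribosome biogenesis and 17 interferon rises. Higher and lower genes numbered 317 and 133 with no filter, 941 and 883 after quantile normalization, 879 and 722 after median scaling, 899 and 691 after rescaling without the 3 abundant features (chosen after seeing the data), 248 and 101 in the HE2 libraries alone, and 5 and 2 in libraries low in Lars2 alone, where PlusDox HE2 keeps 1 library. The filter of 5 FPKM gave 332 higher genes and a term for Lars2 gave 840. Leaving out 1 library gave 128 to 582 higher and 39 to 299 lower genes, 0 to 4 differences from HE1 and 1 to 5 from HP. Differences from HE1 numbered 0 with a pseudocount of 0.1 (792 at an unadjusted p below 0.05) and with the filter of 5 FPKM (664), 1 after median scaling and with the Lars2 term, and 10 after quantile normalization and without the trend. Those from HP numbered 1 with the pseudocount of 0.1, 6 with no filter and 0 with the Lars2 term (1223 at such a p). The genes behind these counts were not always those named above. With no filter, neither Ctsh (adjusted p = 0.126 in limma) nor Gm34865 (0.116) was among the 6. The path gave 2242 genes in libraries low in Lars2 alone. Runx1 was not called in any of these; its fold of −0.24 became 0.09 with the Lars2 term, 0.12 in libraries low in Lars2 alone, and it lay between −0.60 and 0.12 without single libraries. Mecom passed after quantile normalization (1.05) and with the replicate block (0.98). The causes were not tested.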
